A study of Mus musculus with 24 samples.

Results

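Most mouse genes give more than 1 RNA, and the subject here is which of a gene's transcripts its reads fell on in the medial frontal cortex, in mice carrying a Dnmt3l transgene and in controls. The deposited mRNA table gives an expected count, that is an estimated number of reads, for each Ensembl transcript in each library. A gene was included if 2 or more of its transcripts each had a mean expected count of 20 or more over the 12 libraries. This left 36241 transcripts in 9489 genes, of 119414 transcripts in the table and 36096 genes. Of these genes 3197 had exactly 2 such transcripts and the most had 33, and the included transcripts held 77.0% to 82.6% of a library's counts. The quantity compared is the share, the percentage of a gene's summed expected counts that one transcript took in one library. The first-ranked transcript of a gene is the one with the highest mean share over all 12 libraries.

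All mice were of the C57BL/6J background and 28 days old. Control males (CON-M) and control females (CON-F) carried Emx1-cre, a recombinase driven by the Emx1 gene, which acts in excitatory neurons and glia of the dorsal forebrain and not in interneurons, microglia or vessels of the same tissue. Dnmt3l males (OE-M) and Dnmt3l females (OE-F) carried the same Emx1-cre and in addition a conditional Dnmt3l knock-in. Each group had 3 libraries from ribosomal RNA-depleted total RNA. The labels do not say that each library came from a separate animal, so p-values measure the spread between these libraries, which may be partly technical.

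A gene gives several transcripts when it starts at alternative promoters, when exons are joined in different ways or skipped, when an intron is kept, or when the RNA ends at different polyadenylation sites. In brain these choices are used heavily: they set which domains a receptor, channel or adhesion protein carries and how long the untranslated end of its RNA is. Dnmt3l is a catalytically inactive relative of the de novo DNA methyltransferases that binds Dnmt3a and histone H3. DNA methylation inside genes and at alternative promoters has been linked to the choice of transcript, and the comparison asks whether that choice differed when Dnmt3l was expressed. The files name transcripts by Ensembl identifier and length only, so a transcript below is called by its length, and whether it encodes protein or keeps an intron was not analysed here. Reads that transcripts share were divided among them by estimation, and a longer transcript gathers more reads, so shares are shares of counts and not of molecules.

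Alternative starts are one of the sources of transcript choice that can be shown as sequence. RefSeq start windows matched 7599 of the 9484 distinct gene symbols, and 514 of the 1822 matched genes with a called transcript (28.2%) had 2 or more windows, against 1432 of 5777 without one (24.8%). The 250 bases before the start are printed for 3 genes described below whose leading transcript differed between genotypes (for Mapre3 in all Dnmt3l libraries but OE-F 1, Dnmt3l female replicate 1) and for which RefSeq lists separate starts: Tsc22d1, whose long and short forms are known to start at different promoters, the tropomyosin gene Tpm3 and the microtubule-binding gene Mapre3. Sequences are from RefSeq (GRCm38.p6), plus strand, 5′ to 3′, with every CG dinucleotide, the site at which mammalian DNA is methylated, in capitals; CG reads the same on both strands. The files do not tie a deposited transcript to a start.
Tsc22d1 first start, chr14:76414711-76414960: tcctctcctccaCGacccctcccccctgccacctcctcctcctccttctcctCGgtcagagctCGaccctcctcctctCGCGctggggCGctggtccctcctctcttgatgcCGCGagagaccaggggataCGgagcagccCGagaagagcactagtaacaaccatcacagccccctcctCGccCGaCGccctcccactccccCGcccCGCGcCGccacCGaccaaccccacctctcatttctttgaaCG
Tsc22d1 last start, chr14:76504260-76504509: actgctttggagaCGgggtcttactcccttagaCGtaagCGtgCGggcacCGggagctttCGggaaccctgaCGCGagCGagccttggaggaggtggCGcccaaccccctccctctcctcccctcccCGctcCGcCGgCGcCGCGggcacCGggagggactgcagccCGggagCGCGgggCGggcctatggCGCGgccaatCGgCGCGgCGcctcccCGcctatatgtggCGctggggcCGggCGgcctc
Tpm3 first start, chr3:90072401-90072650: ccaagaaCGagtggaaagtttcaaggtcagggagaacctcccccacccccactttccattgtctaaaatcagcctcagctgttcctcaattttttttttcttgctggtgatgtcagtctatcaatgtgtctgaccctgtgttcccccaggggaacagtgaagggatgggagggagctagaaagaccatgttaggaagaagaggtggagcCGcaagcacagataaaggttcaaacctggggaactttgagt
Tpm3 last start, chr3:90079271-90079520: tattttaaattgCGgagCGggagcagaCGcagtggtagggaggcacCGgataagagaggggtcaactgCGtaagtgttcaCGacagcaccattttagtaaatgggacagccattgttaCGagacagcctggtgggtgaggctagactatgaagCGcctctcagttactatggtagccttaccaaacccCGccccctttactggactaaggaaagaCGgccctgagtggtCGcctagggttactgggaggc
Mapre3 first start, chr5:30814391-30814640: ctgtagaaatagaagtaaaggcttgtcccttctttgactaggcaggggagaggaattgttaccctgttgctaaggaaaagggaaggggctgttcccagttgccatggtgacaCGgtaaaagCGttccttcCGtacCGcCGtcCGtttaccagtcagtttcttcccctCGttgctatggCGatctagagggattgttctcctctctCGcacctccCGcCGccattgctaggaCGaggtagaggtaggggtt
Mapre3 last start, chr5:30861557-30861806: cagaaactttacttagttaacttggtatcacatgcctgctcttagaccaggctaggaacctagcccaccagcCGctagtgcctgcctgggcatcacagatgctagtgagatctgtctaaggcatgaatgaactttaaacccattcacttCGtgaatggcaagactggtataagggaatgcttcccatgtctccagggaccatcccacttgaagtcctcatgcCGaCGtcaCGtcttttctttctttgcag
The first and last of the 5 Tsc22d1 starts, 89549 bases apart, had 19 and 31 CG in these windows. Between the 2 Tpm3 starts, 6870 bases apart, the count was 2 against 11. Between the 2 listed Mapre3 starts, 47166 bases apart, it was 12 against 5. The last Mapre3 window ends in a run of pyrimidines followed by cag, as introns do before an exon. Whether it lies before a true start or within an intron was not tested. Over all 32851 RefSeq windows of this length 92.1% held at least 1 CG, with a median of 6 and quartiles of 2 and 16. The data hold no methylation values, so these counts describe the sequence only.

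Some libraries stood apart before any gene was considered. On the first principal component of the logit shares, which held 16.7% of the variance, the controls lay from -131 to -40.3 and 5 Dnmt3l libraries from 93.7 to 158, but Dnmt3l female replicate 1 (OE-F 1) lay among the controls at -51.6. The Dnmt3l transcript was highest in OE-F 1 (1179 counts, against 521 to 609 in the other 5). In 3 control libraries, CON-M 3, CON-F 1 and CON-F 2, 7 liver genes (Alb, Apoa1, Apoa2 and others) summed to 64.6, 80.9 and 81.7 CPM (counts relative to the library's total, after scaling of that total by edgeR's TMM factor), against 0.230 to 0.522 in the other controls and 0.477 to 1.64 in Dnmt3l. Mitochondrial RNA took 2.62% to 3.57% of counts in controls, 3.71% in OE-F 1 and 5.54% to 7.26% in the other Dnmt3l libraries. Control libraries held 27074837 to 32100277 counts in total, Dnmt3l libraries 22144970 to 26842726. Astrocyte markers (5 of 6 higher in mean) summed to 6075 to 6648 CPM in controls, 6810 in OE-F 1 and 10514 to 12690 in the other Dnmt3l libraries. Microglial markers (6 of 6) summed to 186 to 212, 215 and 331 to 404, and endothelial markers (6 of 6) to 178 to 198, 215 and 330 to 399, in the same order. Markers of oligodendrocyte precursors (4 of 4) summed to 151 to 191, 155 and 271 to 362. Those of mature oligodendrocytes (5 of 6) summed to 3509 to 6497, 3394 and 6131 to 10505, with overlap. Meningeal fibroblast markers (4 of 4) summed to 65.4 to 99.95 in controls and 60.9 to 121 over all 6 Dnmt3l libraries. Choroid plexus markers (2 of 4) summed to 88.0 to 340 and 62.2 to 593. Both overlapped. Interneuron markers, 3 of 6 higher in mean, summed to 603 to 691 in controls and to 475 to 594 over all 6 Dnmt3l libraries, without overlap. Excitatory neuron markers (2 of 6 higher) summed to 1926 to 2336 and 1860 to 2442, and red blood cell markers (0 of 5 higher) to 106 to 515 and 72.6 to 215. No marker of these lists was at 0 in every library. In bulk tissue, fewer cells of a type and less RNA per cell cannot be told apart. The part of these differences between libraries in the shares below was not tested.

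Dnmt3l itself fell outside the included genes because its reads came from 1 transcript. Of its 8 Ensembl transcripts (chr10:78041947-78063622), the 1657-base ENSMUST00000151242 took 99.9% of the gene's counts in Dnmt3l libraries, with 603, 609 and 521 in the males and 1179, 532 and 597 in the females. It had 3 counts in CON-F 3 and 0 in the other 5 controls, and 6 of the 8 transcripts were at 0 in every library. The transgene was therefore read as a single form.

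Shares differed between the genotypes in 9.95% of transcripts; those that fell were mostly the first-ranked transcript of their gene, and those that rose were mostly lower-ranked. Averaged over the sexes, 3606 of 36241 transcripts (9.95%) had a changed share by edgeR's quasi-likelihood test at a Benjamini-Hochberg adjusted p below 0.05, 2561 higher (7.07%) and 1045 lower (2.88%). They lay in 2284 genes (24.1%), of which 734 (7.74% of all genes) had both a called rise and a called fall. Combining the transcripts of each gene by the Simes method called 1661 genes (17.5%). The transcripts that fell were large: 701 of the 1045 (67.1%) were first-ranked in their gene, against 26.2% of all tested transcripts, and their median share was 58.3% in controls and 44.2% in Dnmt3l. Those that rose were small, with 176 of 2561 first-ranked (6.87%) and a median share of 5.67% in controls and 10.4% in Dnmt3l. A difference of 10 percentage points or more was seen for 928 called transcripts (2.56%), 430 higher (1.19%) and 498 lower (1.37%). In 1118 transcripts (3.08%) all 6 Dnmt3l libraries lay above all 6 controls, and in 591 (1.63%) below.

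The number of calls depended strongly on the libraries and on the method. Without OE-F 1 the count was 6012 (3986 higher), of which 3531 were among the 3606. Without the 3 controls that held liver transcripts it was 6, and each of the 73 called transcripts followed through the alternatives lost its call (adjusted p from 0.0715 to 0.281). Without these controls and OE-F 1 together it was 2372. In edgeR's diffSpliceDGE, which compares each transcript's change with the overall change of its gene, 475 transcripts passed. Of these 226 were higher and 249 lower, so the excess of rises was not seen by that method. The cause of this difference between the methods was not tested. Among the 24 genes named by size below, the difference in share without the 3 liver-holding controls was between 0.782 and 1.16 times that with all libraries (median 1.02). Among the 36 transcripts that the naming rule picks for the gene lists it was between 0.781 and 1.36 times (median 1.02). These ratios are of transcripts chosen for their size and were not computed over all calls. The 24 were also chosen for genotypes that did not overlap, so leaving out controls could not have reversed their differences. The ratios therefore do not show that the calls hold without these controls.

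**Figure D1:**
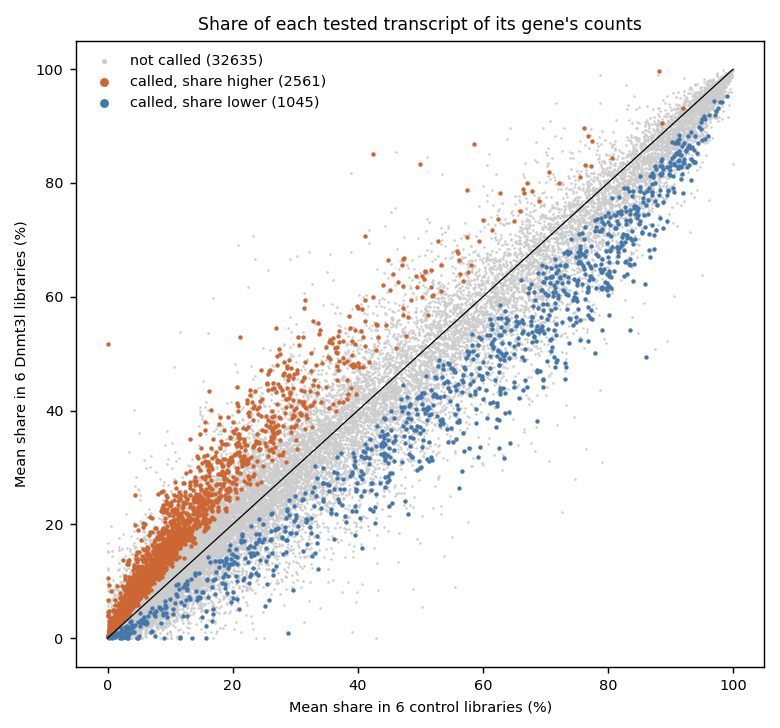
Mean share in the 6 control libraries (horizontal axis, percent) against that in the 6 Dnmt3l libraries (vertical axis, percent) for each of the 36241 tested transcripts; the line marks equal shares. The 2561 called rises (orange) crowd at low shares above the line, and the 1045 called falls (blue) run along the lower side, most of them at high shares.

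The same movement was seen library by library. For the summaries per library, shares were taken of the counts of a gene's included transcripts only. The median over genes of the first-ranked transcript's share was 69.5% ± 0.538 in controls (SD, n = 6; lowest 68.7%, median 69.5%, highest 70.1%) and 66.2% ± 1.46 in Dnmt3l (n = 6; 65.2%, 65.6% and 69.0%). The other 5 Dnmt3l libraries lay below every control, at 65.2% to 66.4%, and OE-F 1 inside the control range. The difference of -3.33 points had p = 0.01 in an exact two-sided permutation test within sexes (adjusted p = 0.02 over 4 such summaries; 400 arrangements, smallest possible p 0.005). The entropy of the shares, which is higher when a gene's counts are spread more evenly, was 1.09 bits ± 0.0112 in controls (1.07 to 1.11) and 1.14 bits ± 0.0225 in Dnmt3l (OE-F 1 at 1.10, the others 1.14 to 1.15), a difference of 0.0533 bits (exact permutation p = 0.01, adjusted p = 0.02). Apart from OE-F 1 the groups did not overlap in this measure either.

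The mean transcript length, weighted by shares of counts and not of RNA molecules, gave no called difference with all 12 libraries. Weighted by share, the mean transcript length was 3721 bases ± 12.1 in controls and 3705 bases ± 16.7 in Dnmt3l, a difference of -16.3 bases (exact permutation p = 0.09, adjusted p = 0.12), with overlapping groups. Without OE-F 1 the difference was -20.8 bases (exact permutation p = 0.03, adjusted p = 0.04). Taken relative to each gene's own mean, the log2 length in all 12 libraries differed by -0.00108 (exact permutation p = 0.755, adjusted p = 0.755). Among called transcripts that rose by 10 points or more and were not first-ranked, 224 of 319 (70.2%) were longer than their gene's first-ranked transcript. The same held for 39.7% of all lower-ranked transcripts with a mean share of 15% to 45%, and for 23.3% of all lower-ranked ones. Of the 2385 lower-ranked transcripts that rose by any amount, 29.1% were longer.

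**Figure D2:**
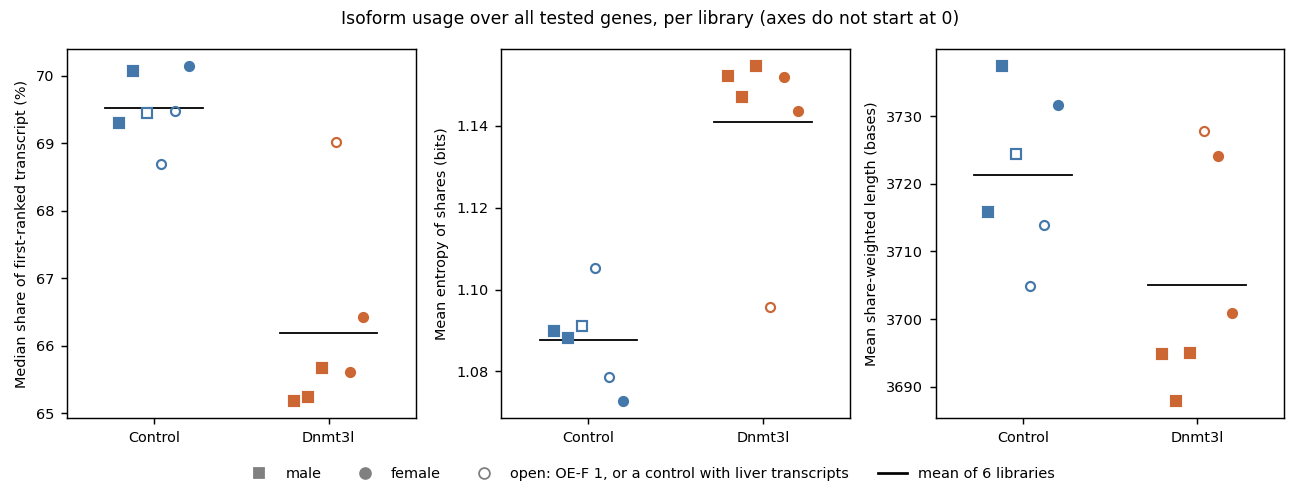
Median share of the first-ranked transcript (percent), mean entropy of the shares (bits) and mean share-weighted length (bases) in each library, over the tested genes; squares are males, circles females, and bars the mean of 6 libraries. In the first and the second panel 5 Dnmt3l libraries lie apart from all controls, while OE-F 1 (open circle under Dnmt3l, at 69.0% and 1.10 bits) lies with or next to them.

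Calls were more frequent among genes with more reads and more transcripts. A called transcript was found in 6.53% of genes in the lowest quartile of mean gene count and in 18.0%, 28.9% and 42.8% of the next quartiles. It was found in 8.82% of genes with 2 included transcripts, 22.5% with 3 to 4, 42.3% with 5 to 8 and 63.2% with 9 or more. The counts of called genes in the lists below are to be read against this, since most lists hold abundant genes with many transcripts.

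The 24 genes with the largest differences were taken from 1043 with a called transcript whose genotypes did not overlap and a mean gene count of 200 or more; the differences ran from 31.7 points down to 22.9, and the next gene outside stood at 22.6. In 18 of them the named transcript fell, and 17 of these 18 were first-ranked; in the other 6 it rose. The transcript with the largest opposite difference in the same gene was itself called in 15 of the 24, and in 17 of the 24 the one of the pair with the higher share in Dnmt3l was the longer. In 17 of the 24, OE-F 1 was the Dnmt3l library nearest the controls. These 24 were chosen on the values shown, which are therefore a description.

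Grhl1, L3mbtl2, Dmap1 and N6amt1 were among the 24. Grhl1 encodes a grainyhead-family transcription factor (chr12:24572283-24617391). Its 3070-base form took 51.9% to 76.6% of counts in controls (median 60.6%) and 20.9% to 46.7% in Dnmt3l (median 31.7%). All Dnmt3l libraries lay below all controls, with the fall shared by both sexes (-28.3 points in males, -35.1 in females; log2 share change -1.01 ± 0.20, SE; adjusted p = 0.0202). Its 3469-base form was at 0% to 28.7% in controls and 22.5% to 52.3% in Dnmt3l, with overlap and adjusted p = 0.457. L3mbtl2, a methyl-lysine-binding repressor related to Polycomb proteins (chr15:81663889-81688315), was read in controls almost wholly as the 3487-base form, at 80.5%, 83.7% and 86.0% (lowest, median, highest). In Dnmt3l that form stood at 40.9%, 50.3% and 78.1%, the last being OE-F 1 (-0.64 ± 0.12; adjusted p = 0.0167). The 4645-base form rose from a median of 10.7% to 24.6% (1.02 ± 0.24; adjusted p = 0.0318), with OE-F 1 at 11.5% inside the control range. Dmap1, a partner of the maintenance methyltransferase Dnmt1, lost share in its 1566-base form, from a range of 61.0% to 77.7% in controls to 19.5% to 49.6% in Dnmt3l (-0.85 ± 0.22; adjusted p = 0.0379). N6amt1, a methyltransferase gene, fell in its 1884-base form from a median of 61.0% to 38.4% (adjusted p = 0.0356).

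U2af2 and Stub1 were among the 24 as well. U2af2 encodes the large subunit of the factor that binds the polypyrimidine tract before the 3′ splice site (chr7:5062143-5079938). In controls its 2183-base form took 59.9%, 62.3% and 66.5% of counts (lowest, median, highest), and in 5 Dnmt3l libraries 31.8% to 36.7%; OE-F 1 stood at 59.3%, just below the lowest control. The change was -0.71 ± 0.13 in log2 share (adjusted p = 0.0172), and the 2412-base form rose from a range of 13.0% to 16.5% in controls to 18.9% to 37.9% in Dnmt3l (1.16 ± 0.16; adjusted p = 0.01). In CPM the 2183-base form was at 53.0 to 61.0 in controls and at 21.1 to 57.3 in Dnmt3l, and the 2412-base form at 11.7 to 15.4 and 18.3 to 27.7. These levels were not tested by themselves. Stub1, the co-chaperone ubiquitin ligase CHIP (chr17:25830505-25833404), had its 1803-base form at 44.1% to 50.6% in controls and 16.2% to 33.8% in Dnmt3l (-0.99 ± 0.14; adjusted p = 0.0111), with no overlap. The whole gene stood at 72.6 to 78.7 CPM in controls and 49.5 to 76.2 in Dnmt3l.

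In Psmc2 and Mars1 the share of the named form rose. Psmc2, an ATPase subunit of the proteasome (chr5:21785283-21803787), has 2 included forms that nearly changed places. Its 3466-base form took 29.8% to 36.9% in controls and 40.8% to 64.7% in Dnmt3l (0.76 ± 0.11; adjusted p = 0.011). The 1775-base form fell from a range of 63.1% to 70.2% in controls to 35.3% to 59.2% in Dnmt3l (-0.60 ± 0.11; adjusted p = 0.0155). For Mars1, the methionyl-tRNA synthetase (chr10:127296221-127311786), the 3065-base form rose from a range of 25.2% to 36.6% in controls to 41.9% to 75.2% in Dnmt3l (0.92 ± 0.15; adjusted p = 0.0133), whereas the 2962-base form, with adjusted p = 0.225, overlapped between genotypes. Falls of the leading form were also called for the deubiquitinase genes Usp21 (median 72.0% to 46.0%; adjusted p = 0.0133) and Otub2 (68.7% to 46.7%; adjusted p = 0.0171), for Ufsp2, a protease of the ubiquitin-like UFM1 (70.3% to 38.6%; adjusted p = 0.024), and for Eif2b3, a subunit of the translation initiation factor eIF2B (70.7% to 46.8%; adjusted p = 0.0211). In Ufsp2 the highest Dnmt3l share, 63.4% in OE-F 1, lay just below the lowest control at 63.5%.

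Mapre3, Wdr35 and Pcdhga12 also belonged to the 24. Mapre3 encodes EB3, which tracks growing microtubule ends in neurons (chr5:30814641-30866106). Its 2442-base form took 17.3%, 20.3% and 24.4% in controls and 25.4%, 47.7% and 52.3% in Dnmt3l (1.09 ± 0.16; adjusted p = 0.0119). OE-F 1 held the 25.4%, and the next Dnmt3l library was at 44.0%. The 2021-base form fell from a median of 43.8% to 22.9% (-0.74 ± 0.18; adjusted p = 0.0339). Wdr35, a component of transport within cilia, fell in its 4501-base form from a median of 69.3% to 43.2% (adjusted p = 0.0169). Pcdhga12, a clustered gamma protocadherin of the neuronal surface, had 2 forms with nearly mirrored shares: the 4352-base form rose from a range of 21.1% to 31.2% in controls to 46.8% to 68.9% in Dnmt3l (1.02 ± 0.12; adjusted p = 0.00932) and OE-F 1, at 56.0%, was with the other Dnmt3l libraries. Gamma protocadherins share their last exons, so reads could be divided between genes of the cluster, and the value for Pcdhga12 is uncertain in that respect.

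The rest of the 24 divided in the same way. Shb, an SH2-domain adaptor, rose in share (43.1% to 70.9% in controls, 71.7% to 100% in Dnmt3l, adjusted p = 0.0248). Its named form had 120 to 227 counts in controls and 81.8 to 190 in Dnmt3l, so its counts did not rise. Pcyt1b, an enzyme of phosphatidylcholine synthesis, rose in share as well (7.03% to 23.6% and 23.7% to 59.2%, adjusted p = 0.0282). Brat1, a regulator of DNA damage signalling, had a 3333-base form at 17.5% to 37.2% in controls that was listed at 0 in 5 Dnmt3l libraries and at 5.67% in OE-M 1 (adjusted p = 0.0233). Falls of the first-ranked form were called for Wwox, Tbrg1, Ankra2, Ccng2, Fam50a and Apbb3, with differences of -22.9 to -26.0 points. The calls of 12 of the 24 were kept in each of 12 fits that left out 1 library: Grhl1, L3mbtl2, Mars1, Pcdhga12, Tbrg1, Otub2, U2af2, Wdr35, Usp21, Stub1, Mapre3 and Psmc2. The other 12 were lost in 3 to 10 of these fits, most often without CON-F 2 (12), CON-M 1 (11) or CON-F 3 (10) and never without OE-F 1. Without the 3 liver-holding controls together none of the 24 was called (adjusted p from 0.0903 to 0.194).

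**Figure D3:**
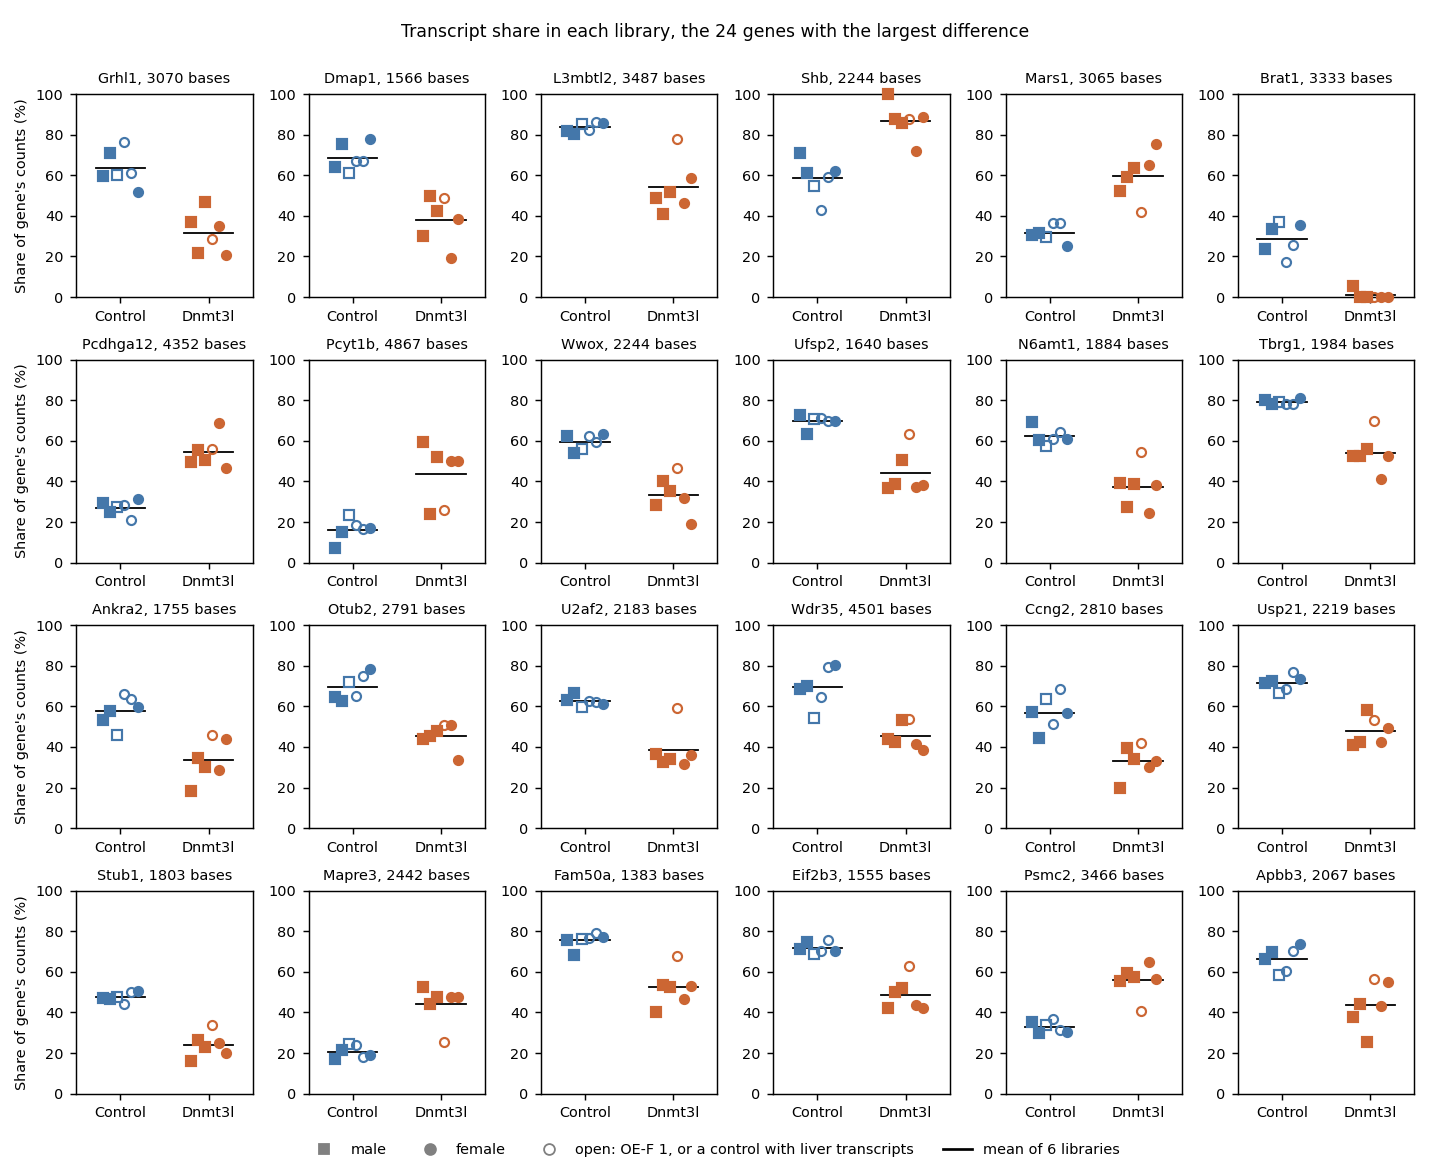
Share of the named transcript (percent of its gene's counts, vertical axes from 0 to 100) in each of the 12 libraries for the 24 genes, with its length in bases; squares are males, circles females and bars means of 6 libraries. No gene's genotypes overlap, and in many panels, such as U2af2 (59.3%) and Mapre3 (25.4%), OE-F 1 (open circle under Dnmt3l) is the Dnmt3l library nearest the controls.

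In 12 of 9489 genes (0.126%) one transcript led in all 6 controls and a different one in all 6 Dnmt3l libraries. The largest by reads was Atp2a2 (chr5:122453513-122502225), the calcium pump of the endoplasmic reticulum, known for forms that differ at the carboxyl end. Its 5674-base form led in controls at 51.1%, 51.7% and 53.3% (lowest, median, highest) and stood at 39.5%, 41.9% and 47.3% in Dnmt3l. Its 4486-base form was at 46.2% to 48.0% and 52.1% to 59.9%. The groups did not overlap for either, and both changes were called (-0.29 ± 0.03, adjusted p = 0.00932, and 0.27 ± 0.03, adjusted p = 0.00888). In CPM the 5674-base form was much the same in the genotypes (497 to 533 against 470 to 599), while the 4486-base form was at 454 to 482 and 517 to 808.

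Tsc22d1, a leucine-zipper gene with the separate starts printed above (chr14:76414961-76507765), was led in controls by its 1762-base form, at 40.6%, 43.6% and 50.1%. In Dnmt3l this form took 29.1%, 31.0% and 39.9%, with no overlap (-0.47 ± 0.08; adjusted p = 0.0145). The 4818-base form led there, at 41.6% to 53.8% against 36.1% to 41.8% (0.29 ± 0.06; adjusted p = 0.0233), with OE-F 1 at 41.6% inside the control range. In CPM the 1762-base form was at 141 to 169 in controls and at 72.6 to 129 in Dnmt3l, and the long form was at 122 to 138 and 110 to 143. Tpm3, a tropomyosin that lines actin filaments (chr3:90072649-90100902), fell in its 2190-base form from a range of 44.6% to 52.7% in controls to 31.4% to 40.7% in Dnmt3l (-0.47 ± 0.06; adjusted p = 0.00932). The 2230-base form overlapped between genotypes, at 32.6% to 41.1% and 37.6% to 44.1% (0.20 ± 0.05; adjusted p = 0.0387).

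Hnrnpl and Hnrnpdl, which encode RNA-binding proteins, were among these switches as well. Hnrnpl, a repressor and activator of exon inclusion, was led by a 1898-base form in controls (median 34.5%, against 23.7% in Dnmt3l, without overlap; -0.49 ± 0.08; adjusted p = 0.0124). In Dnmt3l a 2275-base form led (29.9% to 40.1%, against 25.4% to 29.0%; 0.41 ± 0.07; adjusted p = 0.0152). Hnrnpdl had a 2374-base form that rose from a range of 23.0% to 31.7% in controls to 32.2% to 44.1% in Dnmt3l (adjusted p = 0.0348), while the 2752-base form had adjusted p = 0.0523 and overlapped. Med24, a subunit of Mediator, passed from its 3133-base form (35.8% to 43.8% in controls, 26.2% to 30.8% in Dnmt3l) to its 4577-base form (25.6% to 31.0% and 31.1% to 48.6%; adjusted p = 0.0113 and 0.0103). Bcas2, a spliceosome component, passed from a 737-base form to one of 3878 bases, which rose from a median of 24.6% to 40.8% (adjusted p = 0.0125). For Rgs9, a regulator of G-protein signalling, the 3464-base form rose from a range of 29.9% to 33.8% in controls to 36.2% to 42.1% in Dnmt3l (adjusted p = 0.0119). Its 2434-base form, which led in controls, had adjusted p = 0.0539 and overlapped. The whole gene varied widely, from 44.5 to 82.3 CPM in controls and 16.2 to 84.9 in Dnmt3l. Of the 14 called transcripts in these 8 genes, 10 kept their call whichever library was left out. The exceptions were the 4818-base form of Tsc22d1, the 2374-base form of Hnrnpdl, the 2230-base form of Tpm3 and the 737-base form of Bcas2, whose highest adjusted p values were 0.0577, 0.0798, 0.0888 and 0.108. The remaining 4 switching genes were Ube2j2, Ip6k2, Rnf138 and Vcpkmt.

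**Figure D4:**
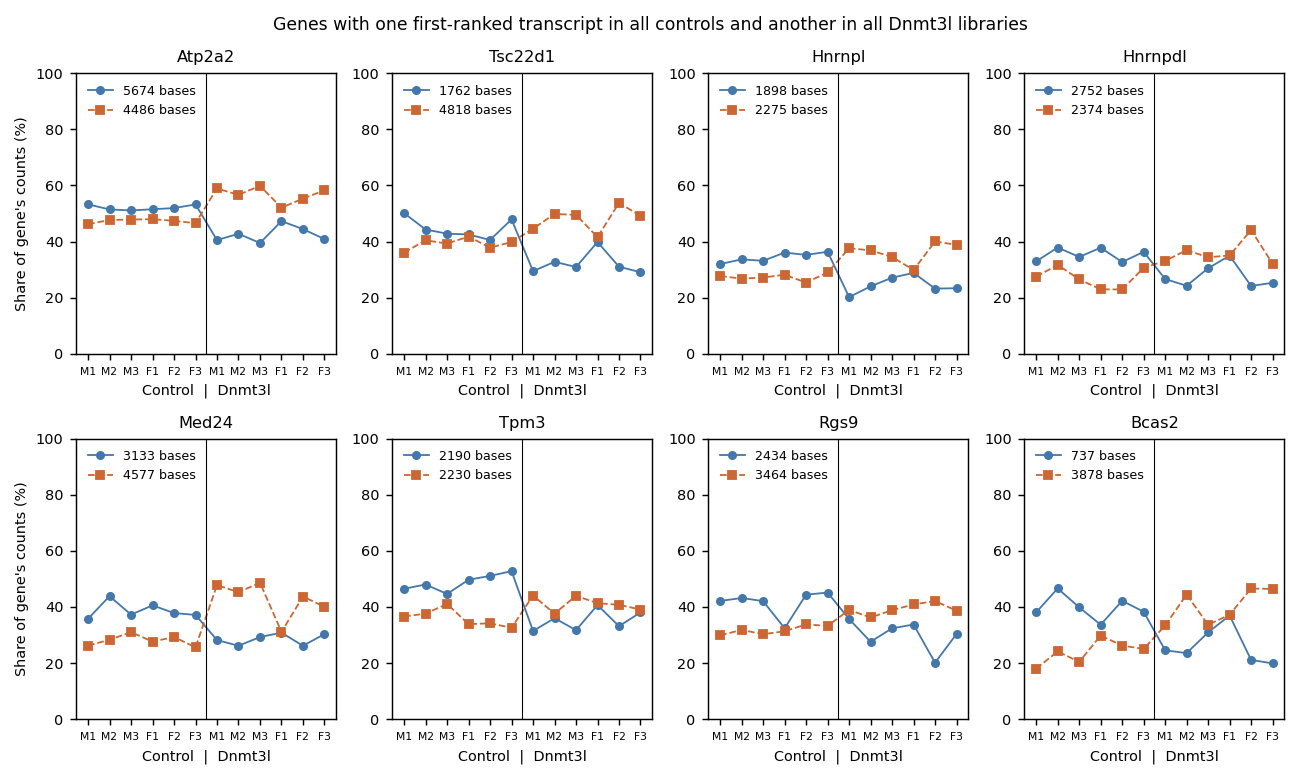
Share (percent) in each library, controls left of the line and Dnmt3l right of it, for the transcript that led in all controls (blue, solid) and the one that led in all Dnmt3l libraries (orange, dashed), with lengths in bases. By the rule that picked the 8 genes the lines cross between the genotypes. In OE-F 1 (F1 on the right) several pairs nearly meet, as in Hnrnpdl at 35.0% and 35.1%.

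The leading forms of Grin2b, Grin2a and Grm5 had the largest called falls among glutamate receptor genes. Of 132 tested transcripts in 32 glutamate and GABA receptor genes, 7 were higher, 6 lower and 119 not called (9.85%, near the 9.95% of all transcripts). A call was held by 9 of the 32 genes (28.1%, against 24.1% of all genes). Grin2b, the NMDA receptor subunit of young cortex (chr6:135713233-136173511), was read in controls as a 24060-base form at 92.8%, 93.8% and 94.7%. In Dnmt3l it took 81.4%, 85.4% and 92.5%, with no overlap and OE-F 1 highest (-0.13 ± 0.01; adjusted p = 0.00888). A 7484-base form rose from a range of 4.90% to 6.64% in controls to 6.34% to 18.2% in Dnmt3l (1.18 ± 0.13; adjusted p = 0.00932). In CPM the long form differed little, 1973 to 2343 in controls and 2086 to 2563 in Dnmt3l, whereas the short one was at 118 to 149 and 145 to 494.

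Falls were also called for Grin2a and Grm5 of this list, most of whose genes held no call. The 14634-base form of Grin2a, the subunit of mature NMDA receptors, fell from a range of 85.3% to 88.9% in controls to 74.4% to 84.8% in Dnmt3l (-0.15 ± 0.02; adjusted p = 0.00932). Its 4395-base form had a median of 6.13% in controls and 11.5% in Dnmt3l but was not called (adjusted p = 0.0742). Grm5, a metabotropic glutamate receptor gene, fell in its 8047-base form from a median of 66.7% to 55.6% (adjusted p = 0.0115), with overlap, and rose in its 4500-base form from 26.0% to 36.6% (adjusted p = 0.0114). In all 3 genes the form that gained was shorter than the leading one, although for Grin2a the gain was not called. The falls of Grin2b, Grin2a and Grm5 were called whichever library was left out.

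Leading forms fell in 5 of the 35 synaptic adhesion genes, and in 701 of all 9489 genes. Of the list's 250 transcripts 14 were higher, 10 lower and 226 not called (9.60%, near the 9.95% of all). A call was held by 15 genes (42.9%, against 24.1% of all genes). The median gene had 9537 counts and 5 transcripts, and 42.3% of all genes with 5 to 8 included transcripts held a call. The smallest of the 5 falls was that of the 5608-base form of Ptprs, a receptor tyrosine phosphatase gene, at -3.13 points (adjusted p = 0.0455). The 9564-base form of Cadm2, a cell adhesion molecule of axons and synapses, fell from a median of 70.2% to 54.5%, with OE-F 1 at 68.5% inside the control range (-0.27 ± 0.05; adjusted p = 0.0137), and its 2768-base form rose from 27.6% to 42.1% (0.47 ± 0.08; adjusted p = 0.0139). Chl1, an L1-family adhesion gene, fell in its 7562-base form from 76.1% to 66.7% and rose in its 4152-base form from 16.6% to 26.1% (adjusted p = 0.0172 and 0.0165). Nrxn3, a presynaptic neurexin gene with 14 included forms, fell in its 7922-base form from a range of 43.2% to 44.6% in controls to 30.2% to 43.0% in Dnmt3l, without overlap (adjusted p = 0.0493). Lrrtm2, a postsynaptic partner of neurexins, fell in its 5673-base form from 83.4% to 73.5% (adjusted p = 0.0364). The falls of Nrxn3 and Lrrtm2 were lost in 11 and 9 of the fits without 1 library, those of Cadm2 and Chl1 in none.

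Vesicle release genes had the highest percentage of calls among the lists. Of 195 transcripts in 35 genes, 33 were higher, 13 lower and 149 not called (23.6%, against 9.95% of all transcripts), and 24 of the 35 genes held a call (68.6%, against 24.1% of all genes). The median gene of this list had 6443 counts and 5 included transcripts, against 970 counts and 3 over all genes. All genes with 5 to 8 included transcripts held a call in 42.3%. Picalm, a clathrin assembly gene (chr7:90130213-90213465), had a 3528-base form at 20.8%, 23.2% and 36.9% in controls and 0%, 0.942% and 24.5% in Dnmt3l. OE-F 1 held the 24.5%, inside the control range, and the fall was called (adjusted p = 0.0127). Vamp1, a vesicle SNARE, fell in its 2772-base form from a range of 78.1% to 81.8% in controls to 47.8% to 74.3% in Dnmt3l (-0.41 ± 0.10; adjusted p = 0.0352), and its 3011-base form rose from 14.8% to 24.8% (adjusted p = 0.0174). Clta, a clathrin light chain known for neuronal exons, fell in its 1135-base form from 66.9% to 49.9% and rose in its 1079-base form from 11.3% to 30.2% (adjusted p = 0.0135 and 0.0262). The dynamin gene Dnm3 fell in its 7523-base form from 68.7% to 51.7% (adjusted p = 0.0154). Picalm and Dnm3 kept their call in every fit without 1 library, and Vamp1 and Clta lost theirs in 9 and 7.

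Most transcripts of splicing regulators were not called. In 61 genes 44 of 438 transcripts were higher, 22 lower and 372 not called (15.1%, against 9.95% of all transcripts). A call was held by 35 genes (57.4%, against 24.1% of all genes and 42.3% of all genes with 5 to 8 included transcripts), and the median gene had 3095 counts and 7 transcripts. Hnrnpk, a poly(C)-binding protein gene (chr13:58391142-58403343), fell in its 2676-base form from 42.5%, 49.1% and 54.4% to 25.5%, 31.1% and 40.3%, without overlap (-0.62 ± 0.09; adjusted p = 0.0115). That form was at 95.5 to 123 CPM in controls and at 38.6 to 81.6 in Dnmt3l. Rbm3, a cold-induced RNA-binding protein gene, rose in its 1274-base form from a range of 16.4% to 19.2% in controls to 22.4% to 39.1% in Dnmt3l (0.84 ± 0.12; adjusted p = 0.0113). Hnrnpa1 rose in its 3118-base form from a median of 39.1% to 54.0% (adjusted p = 0.0264) and fell in its 1737-base form from 43.9% to 32.9% (adjusted p = 0.0492). Mbnl2, a muscleblind splicing factor gene, rose in its 5561-base form from 28.8% to 44.4%, OE-F 1 lying at 24.6% below all controls (adjusted p = 0.0348). In these 4 genes the form with the higher share in Dnmt3l was the longer, but over the list 33 of 38 rising lower-ranked transcripts were shorter than the first-ranked one. The calls of Hnrnpk and Rbm3 were kept in all 12 fits without 1 library, and those of Mbnl2 and Hnrnpa1 were lost in 11 and 9.

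The cytoskeleton list had 46 of 368 transcripts higher, 21 lower and 301 not called (18.2%, against 9.95% of all transcripts). Of its 40 genes 25 held a call (62.5%, against 24.1% of all genes), with a median of 7081 counts and 8 transcripts; all genes with 5 to 8 included transcripts held one in 42.3% and those with 9 or more in 63.2%. Map4, a microtubule-associated protein gene, fell in its 3446-base form from a median of 40.2% to 27.0% (adjusted p = 0.023). Dcx, doublecortin, fell in its 9074-base form from 76.7% to 64.4% (adjusted p = 0.0195) and rose in its 2617-base form from a range of 8.54% to 11.9% in controls to 12.1% to 16.7% in Dnmt3l (0.66 ± 0.11; adjusted p = 0.0127). Dync1i1, a dynein chain gene, fell in its 2599-base form from 49.5% to 40.0% (adjusted p = 0.0261). Of the 4 genes named for this list, Tpm3 included, Tpm3 alone kept its call in every fit without 1 library.

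Postsynaptic and channel genes stood closer to the share of all transcripts than the vesicle release list. Of 240 transcripts in 31 postsynaptic scaffold and kinase genes, 23 were higher, 6 lower and 211 not called (12.1%, against 9.95% of all transcripts). A call was held by 15 genes (48.4%, against 24.1% of all genes and 42.3% of all genes with 5 to 8 included transcripts). The median gene had 7407 counts and 7 transcripts. Camk1, a calcium/calmodulin-dependent kinase gene (chr6:113334124-113343984), fell in its 1496-base form from 66.2%, 70.0% and 71.8% to 35.3%, 45.4% and 62.7% (-0.58 ± 0.08; adjusted p = 0.00984). Its 2359-base form rose from a range of 13.2% to 15.9% in controls to 16.7% to 28.9% in Dnmt3l, and neither form overlapped (0.74 ± 0.11; adjusted p = 0.0113). Camk2b fell in its 4023-base form from 90.0% to 81.5% and rose in its 4125-base form from a range of 4.70% to 5.64% in controls to 5.81% to 12.7% in Dnmt3l (adjusted p = 0.0194 and 0.011). The scaffold gene Shank2 fell in its 7666-base form by 8.52 points (adjusted p = 0.0277). Camk1 kept its call in every fit without 1 library, Camk2b lost it without CON-M 1 (adjusted p = 0.0501), and Shank2 lost it in 7 fits.

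Ion channel genes had 18 of 235 transcripts higher, 12 lower and 205 not called (12.8%, against 9.95%). Of the 39 genes 17 held a call (43.6%, against 24.1% of all genes and 42.3% of all genes with 5 to 8 included transcripts). The median gene had 4772 counts and 5 transcripts. Scn2a, a sodium channel of excitatory neurons (chr2:65620771-65767447), rose in its 6348-base form from 24.4%, 25.5% and 29.4% to 28.7%, 38.4% and 43.4% (0.51 ± 0.06; adjusted p = 0.00932). Its 8935-base form fell from a median of 64.5% to 54.5% (-0.20 ± 0.02; adjusted p = 0.00932). Scn8a fell in its 11232-base form from 70.0% to 57.3% (adjusted p = 0.0219) and rose in its 7030-base form (0.87 ± 0.10; adjusted p = 0.00932), where the highest control stood at 12.5% and the lowest Dnmt3l library, OE-F 1, at 15.8%. Kcnip1, a potassium channel partner, rose in its 4095-base form from 9.80% to 24.7% (adjusted p = 0.013). Cacnb2, a calcium channel beta subunit, fell in its 2117-base form from 28.8% to 20.5% (adjusted p = 0.0373). Scn2a and Kcnip1 kept their call in every fit without 1 library, and Scn8a and Cacnb2 lost theirs in 5 and 10.

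Genes known for alternative promoters or growth factor signalling had 28 of 242 transcripts higher, 13 lower and 201 not called (16.9%, against 9.95% of all transcripts). Of these 32 genes 19 held a call (59.4%, against 24.1% of all genes), with a median of 3444 counts and 6 transcripts. All genes with 5 to 8 included transcripts held one in 42.3%. Mef2a, an activity-regulated transcription factor gene (chr7:67231163-67372858), rose in its 4445-base form from 31.4%, 35.4% and 38.9% to 40.5%, 54.3% and 57.3%, without overlap (0.56 ± 0.08; adjusted p = 0.0107). Its 5538-base form fell from a median of 44.4% to 25.6% (-0.66 ± 0.12; adjusted p = 0.0164), and the gene as a whole stood at 360 to 408 CPM in controls and 348 to 389 in Dnmt3l. Foxp2 rose in a 2849-base form from a range of 9.18% to 17.4% in controls to 20.3% to 35.2% in Dnmt3l (adjusted p = 0.0248). The phosphodiesterase gene Pde4d fell in its 4207-base form from 49.8% to 36.0% (adjusted p = 0.0118), and Nrg3, an ErbB4 ligand gene, in its 4011-base form from 45.2% to 32.9% (adjusted p = 0.0335). Of these, Mef2a and Pde4d kept their call in every fit without 1 library, and Foxp2 and Nrg3 lost theirs in 7 and 10.

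**Figure D5:**
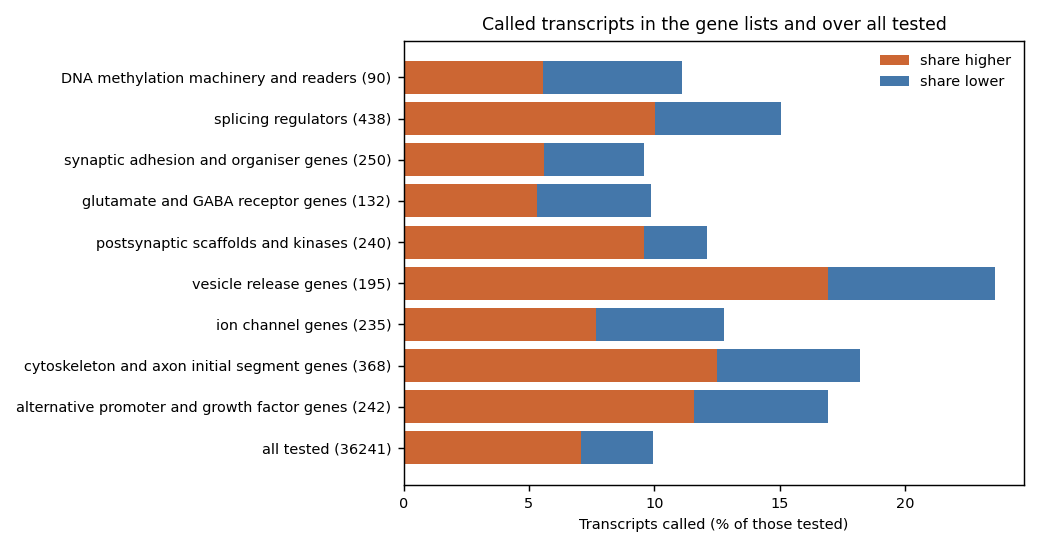
Percentage of tested transcripts called in each gene list and over all tested, with the number tested in parentheses; orange is share higher and blue share lower in Dnmt3l. Vesicle release genes stand highest (23.6%) and synaptic adhesion genes lowest (9.60%), beside 9.95% over all transcripts.

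The DNA methylation machinery had 5 of 90 transcripts higher, 5 lower and 80 not called (11.1%, near the 9.95% of all transcripts), and 6 of its 21 genes held a call (28.6%, near the 24.1% of all genes). Dnmt3a, the methyltransferase that Dnmt3l binds (chr12:3806007-3914443), was not called in any of its 7 included forms (adjusted p from 0.0609 to 0.967). Its 9685-base form took 43.6%, 51.5% and 56.6% in controls and 40.1%, 44.4% and 47.7% in Dnmt3l, with overlap (log2 share change -0.21 ± 0.06). Its 8737-base form stood at 28.8% to 38.9% and 34.5% to 39.3%. Tet3, a dioxygenase that oxidises methylcytosine, fell in its 10904-base form from a median of 61.7% to 50.1% (adjusted p = 0.0137) and rose in its 2523-base form from 11.5% to 16.3% (adjusted p = 0.0417). Uhrf2, a reader of hemimethylated DNA, fell in its 3536-base form from 73.1% to 58.3% (adjusted p = 0.0329), and Zbtb4, a methyl-CpG-binding zinc finger gene, in its 7811-base form from 77.7% to 70.7% (adjusted p = 0.0345). Tet3 kept its call in every fit without 1 library; the other 2 and Dmap1 lost theirs in 10 or 11 of the 12.

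The sexes were compared next. In males 784 transcripts were called (2.16%), 499 higher (1.38%) and 285 lower (0.786%), and in females 1 (0.00276%), with 7814 and 5125 at an unadjusted p below 0.05 (21.6% and 14.1%). Without OE-F 1 the counts were 2727 in males and 1815 in females. The difference between the sexes was itself called for 1 transcript (0.00276%; 1957 at an unadjusted p below 0.05, 5.40%), so the larger count in males is not shown to be a larger effect. That transcript was the 1469-base form of Gimap1, a GTPase gene of immune cells (chr6:48739054-48743795). It had 97.5, 114 and 140 counts in control males, 0 in each of the 3 control females, 132, 246 and 172 in Dnmt3l males and 104, 81.8 and 150 in Dnmt3l females. Its share was 62.4% to 96.6% in control males and 55.4% to 100% in Dnmt3l, and the control females were apart from the other 3 groups (adjusted p of the difference 0.0106). Their counts fell instead on the 1493-base form, with 256, 119 and 87.9.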

How the data were processed

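For 12 libraries of ribosomal RNA-depleted RNA the authors deposited, per the file headers, an expected count and an FPKM for each Ensembl transcript. Among the tools in the submitters' processing notes are the aligner HISAT2 (2.0.1) and the counter HTSeq (0.6.1), with the build GRCm38; no source used here says which program estimated transcript counts. Transcripts with no gene, 1774 with 0.533% to 0.601% of a library's counts, were left out. Small RNA, circular RNA and long non-coding RNA tables were not used here.

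Expected counts were rounded and fitted with edgeR 4.0.16 (quasi-likelihood F test, R 4.3.3), with the log of the gene's summed count in the library as offset, so that the coefficient is the log2 change of the share. The 4 group means shared 1 estimate of the spread (8 residual degrees of freedom). The genotypes were contrasted as the average over sexes, within each sex, and as the difference of the sexes, and p-values were adjusted by Benjamini-Hochberg over all 36241 transcripts. Per-library summaries, on shares of the included transcripts' counts, were compared by exact permutation within sexes, over 9481 genes. On simulated data for the averaged contrast with 36241 transcripts, the counts of 67, 67 and 66 transcripts were changed 1.5, 2 and 4 times. The test found 4.48%, 16.4% and 45.5% of these changes, with 3 false calls among 35255 unchanged transcripts. A change in count changes the share by less. Far fewer transcripts were changed than were called in the data, which makes the adjustment of p-values stricter. The rates are therefore not those of the test in the data.

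Named genes were the 24 with the largest difference in mean share among called, non-overlapping transcripts of genes with 200 or more counts; up to 4 per gene list; Dnmt3l and Dnmt3a; up to 8 genes whose first-ranked transcript differed in all libraries; and those called for a difference between sexes. Results of 2 genes that this rule names are not reported here. The members and lists were chosen with earlier results of these data known. Alternatives were other count minimums, limma 3.58.1 on logit shares (with and without library weights, pseudocounts of 0.5 and 5 counts), shares of FPKM with a pseudocount of 0.01, edgeR's diffSpliceDGE, the DEXSeq model in DESeq2 1.42.0, a replicate block, and leaving out libraries.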

Additional observations from a re-analysis of the deposited data

Results flagged for a closer look

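Of 56 sets of 6 libraries examined (4 summaries and 24 named transcripts, in each genotype), 7 held a library whose gap to its nearest neighbour exceeded 0.625 of the range of the 6, a level that chance passes in about 1 of 20 sets. OE-F 1 was that library in 4. It stood at 69.0% in the median first-ranked share (the other Dnmt3l libraries 65.2% to 66.4%), at 1.10 bits in entropy (1.14 to 1.15), at 59.3% for the 2183-base form of U2af2 (31.8% to 36.7%) and at 25.4% for the 2442-base form of Mapre3 (44.0% to 52.3%). CON-M 2 was low for the 1640-base form of Ufsp2, at 63.5% (the other controls 69.6% to 72.7%), and for the 1383-base form of Fam50a, at 68.3% (75.5% to 79.3%). OE-M 1 alone had counts of the 3333-base form of Brat1 among the Dnmt3l libraries, at 5.67%.

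The 1469-base form of Gimap1 differed between the sexes in its response, with a fitted log2 difference (male minus female) of -9.90 ± 0.60 and an adjusted p of 0.0106 in edgeR's quasi-likelihood test. The 3 control females were at 0, so the size depends on the prior count of the fit and is no estimate of a fold.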

How the results depend on the processing

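For the effect averaged over sexes (3606 transcripts, 1661 genes), calls numbered 1942 and 811 with no count minimum, 1566 and 390 with a replicate block, 2082 and 1075 on shares of FPKM, 475 and 365 with diffSpliceDGE (TMM), 468 and 367 with RLE scaling, 7504 and 3519 with the DEXSeq model in DESeq2, and 2510 genes with limma library weights. Without the 3 liver-holding controls they were 6 and 6, and also without OE-F 1, chosen after seeing the data, 2372 and 998. These gene counts are by the Simes method. The F test per gene of diffSpliceDGE (TMM) called 1971 genes, against 365 by the Simes method. In males (784), females (1) and for their difference (1) the counts were 1278, 0 and 0 at a minimum of 50, 105, 12 and 5 with limma, 1, 0 and 0 with the replicate block, 0, 7 and 7 without the liver-holding controls, and 401, 12 and 0 also without OE-F 1; in males 161 with no minimum. Leaving out 1 library gave 1236 to 6012 transcripts and 225 to 2795 genes averaged over sexes, 0 to 2727 in males, 1 to 1815 in females and 0 to 3 for the difference. It was 1236 to 2039 without any 1 library other than CON-F 1 (2848), OE-M 3 (2516) and OE-F 1 (6012). Where a sex was left with 1 control, its spread was assumed to be that of the other groups. Transcripts whose genotypes did not overlap numbered 1709, and 5165 without OE-F 1, chosen after seeing the data.

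The falls in first-ranked share (-3.90 to -3.13 points) and the rises in entropy (0.0503 to 0.0623 bits) kept their direction when any 1 library was left out. The weighted length differed by -20.8 to -12.8 bases, past the threshold without OE-F 1 (-20.8). The relative log2 length changed sign, to 0.000971 at a minimum of 50, 0.00029 without CON-M 2 and 0.000353 without OE-M 2 (range -0.00288 to 0.000353). Over 75 named transcripts and 26 settings, 1371 of 1949 values kept direction and call, 569 lost the call, 9 gained it and 0 reversed; of the 73 called with all libraries, 73 lost the call without the liver-holding controls and 67 with diffSpliceDGE. The 75 transcripts were chosen on differences in these same libraries, so a reversal was unlikely from the start. Same-numbered libraries correlated at -0.0702 to 0.0617 (18 pairs, none over 0.1), so the numbers were not taken as pairs. The cause of these dependences was not tested.

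Isoforms are known by identifier and length only, and shared reads were divided by an estimate whose error is not known here, which can set a low form to 0. In the simulation 45.5% of changes of 4 times in a transcript's count were found, a rate that need not hold in the data. A form without a call is not shown to be unchanged.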
